A study of Mus musculus with 6 samples.

Results

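Transfer RNA (tRNA) genes on the mouse autosomes other than chromosomes 6 and 13 were examined for WDR5 and H3K4me3 regions in 2 embryonic stem cell lines. The genes were chosen by annotation: every nuclear tRNA gene of the RefSeq table (GRCm38.p6, the assembly called mm10) with a symbol that starts in n-T, on chromosomes 1 to 19 except 6 and 13. This gave 228 of 403 such genes, spread over 16 chromosomes and 71 to 107 bp long (median 73). The class itself was singled out because its WDR5 counts stood high in the same peak lists, so the WDR5 counts below are descriptions, and no test was made on them. Each symbol carries the amino acid in 1 letter and then the anticodon, so n-TRtct1 is an arginine gene with anticodon TCT.

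Chromatin immunoprecipitation sequencing (ChIP-seq) had been done with antibodies to WDR5 and to H3K4me3, histone H3 trimethylated on lysine at position 4. The cells were mouse embryonic stem cells with Rx:GFP KI, a GFP knock-in at the eye-field gene Rx, maintained in 2i+LIF, the medium that holds such cells in the ground state. Both lines lacked endogenous Wdr5 and also p53, so neither stands for an unmodified cell. One line was rescued with WDR5WT (the WT rescue) and the other with WDR5S91KY191F (the mutant rescue), which carries the substitutions S91K and Y191F. Each line gave 1 WDR5, 1 H3K4me3 and 1 input library. The 4 antibody libraries came as peak lists, and the 2 input libraries were not analysed here. With 1 library per antibody and line there is no replicate check. The promoter that drives each rescue construct, and whether a line is 1 clone, are not given in the sources used here.

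Transfer RNAs carry amino acids to the ribosome, and each anticodon is served by several gene copies that are often near-identical and often lie in clusters. RNA polymerase III transcribes them from promoters that lie inside the gene: TFIIIC binds the A box and the B box, and then places TFIIIB just upstream of the start. WDR5 is a WD40-repeat scaffold of the MLL/SET complexes, which methylate lysine 4 of histone H3 at promoters read by RNA polymerase II. It also works in other chromatin complexes and binds MYC.

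No genome came with the files, and the RefSeq promoter table has no window for a tRNA gene of its own. Its windows run from 250 bases before to 50 after a gene's start, and 8 of the 228 genes overlap the window of a neighbour. 5 such windows are printed, 5′ to 3′ on the neighbour's strand, from RefSeq GRCm38.p6; capitals mark the bases of the tRNA gene. Polr3e and Prmt5 entered by the naming rule; the other 3 windows were picked after their values were seen, since they hold a whole tRNA gene or serve as a contrast.
Polg window with n-TRtcg5: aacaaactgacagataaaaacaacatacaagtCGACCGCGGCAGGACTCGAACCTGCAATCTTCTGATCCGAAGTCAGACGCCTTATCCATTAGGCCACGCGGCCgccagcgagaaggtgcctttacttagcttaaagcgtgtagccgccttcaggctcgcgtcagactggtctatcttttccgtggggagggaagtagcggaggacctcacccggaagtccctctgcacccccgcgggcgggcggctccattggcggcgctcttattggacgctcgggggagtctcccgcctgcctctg
Gm38989 window with n-TTagt9: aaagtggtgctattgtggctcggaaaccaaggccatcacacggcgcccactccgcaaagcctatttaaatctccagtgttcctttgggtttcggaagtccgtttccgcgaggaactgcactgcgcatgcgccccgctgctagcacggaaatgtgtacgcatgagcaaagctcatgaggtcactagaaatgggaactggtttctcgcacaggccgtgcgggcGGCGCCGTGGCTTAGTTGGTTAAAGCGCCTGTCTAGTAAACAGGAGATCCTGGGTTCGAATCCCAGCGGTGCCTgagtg
Polr3e window with n-TLaag4: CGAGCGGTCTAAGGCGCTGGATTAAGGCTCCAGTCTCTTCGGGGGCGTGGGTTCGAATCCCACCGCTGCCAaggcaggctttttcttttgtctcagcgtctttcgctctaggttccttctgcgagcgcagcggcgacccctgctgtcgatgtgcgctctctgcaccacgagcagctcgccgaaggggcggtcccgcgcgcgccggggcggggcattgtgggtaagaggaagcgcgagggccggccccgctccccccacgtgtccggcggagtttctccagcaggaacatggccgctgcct
Prmt5 window with n-TRacg6: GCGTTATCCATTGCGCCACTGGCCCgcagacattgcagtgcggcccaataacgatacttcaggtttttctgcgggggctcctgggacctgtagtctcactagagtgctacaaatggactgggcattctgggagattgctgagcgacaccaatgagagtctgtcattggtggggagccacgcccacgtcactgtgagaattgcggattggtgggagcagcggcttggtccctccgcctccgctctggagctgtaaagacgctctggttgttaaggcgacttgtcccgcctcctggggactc
BC107364 window with n-THgtg7: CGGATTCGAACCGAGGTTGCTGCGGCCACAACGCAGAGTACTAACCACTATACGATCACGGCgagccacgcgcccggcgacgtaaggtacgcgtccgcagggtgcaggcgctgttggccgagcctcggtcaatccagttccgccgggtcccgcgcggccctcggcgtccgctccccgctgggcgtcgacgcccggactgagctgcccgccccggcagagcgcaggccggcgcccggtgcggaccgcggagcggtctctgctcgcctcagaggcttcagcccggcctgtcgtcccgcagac

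The Polg window (chr7:79466224-79466523 minus strand) spans a start site of Polg, which encodes the mitochondrial DNA polymerase. It holds all 73 bases of n-TRtcg5, an arginine gene with anticodon TCG that lies inside annotated Polg. The Gm38989 window (chr7:35234765-35235064 minus strand) belongs to a long non-coding RNA and holds all 74 bases of n-TTagt9, a threonine gene. Polr3e encodes a subunit of RNA polymerase III itself. Its window (chr7:120917528-120917827 plus strand) holds 71 of the 82 bases of n-TLaag4, a leucine gene. The Prmt5 window (chr14:54517421-54517720 minus strand), from the gene of a protein arginine methyltransferase, holds 25 of the 73 bases of n-TRacg6. The BC107364 window (chr3:96452257-96452556 minus strand) holds 62 of the 72 bases of n-THgtg7, a histidine gene.

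The B box core, searched as GTTCGANNC on both strands, was in 5 of the 8 windows that overlap a tRNA gene and in 0.843% (277) of all 32851 promoter windows. Read by its direction, n-TLaag4 and n-TTagt9 run the same way as the gene whose window holds them, while n-TRtcg5 and n-THgtg7 run the opposite way. The A box core, searched as TGGCNNAG on both strands, was in 3 of the 8 windows but also in 21.1% of all windows. It overlaps no base of the B box core in these windows. A match lay inside the tRNA gene at n-TTagt9 and at n-TLcaa3, whose window is not printed. In the n-THgtg7 window the match lay outside the tRNA gene. Letters that match a motif are a description and not a measured site.

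WDR5 regions lay next to these printed genes in the mutant rescue list, except at n-THgtg7. A fold here is the authors' enrichment at the summit of a region, its highest point, over the local background. It was used only within its own list, and the values of the 2 lines stand side by side without a comparison. At n-TRtcg5 the mutant rescue WDR5 region had a fold of 7.92 and a −log10 q of 32.8, with its summit 14 bases upstream of the tRNA gene's 5′ end, at position 119 of the Polg window. The WT rescue list had a region there with a fold of 2.34 and a −log10 q of 0, with its summit 5 bases upstream of the 5′ end, at position 110. So both lists placed the summit just before the tRNA gene, on the side that faces the Polg start site of this window. That start site lies 146 bp from n-TRtcg5, and the tRNA gene itself is inside annotated Polg. At n-TTagt9 the mutant rescue region had a fold of 5.10 (−log10 q 16.02) and its summit 83 bases upstream of the 5′ end. At n-TLaag4 it had a fold of 4.09 (−log10 q 5.63), with the summit inside the tRNA gene, 21 bases downstream of its 5′ end. At n-TRacg6 it had a fold of 10.8 (−log10 q 38.6), with the summit at position 68 of the Prmt5 window, outside the tRNA gene. The WT rescue list had no region within 200 bp of n-TTagt9, n-TLaag4 or n-TRacg6. Around n-THgtg7 no list held a region within 1 kb: the nearest WDR5 regions lay 16598 bp (WT rescue) and 10223 bp (mutant rescue) away, although its B box core has the same letters as those of n-TTagt9 and n-TLaag4.

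Over all 228 genes, a WDR5 region lay within 200 bp of 61 in the WT rescue list (26.8%, exact 95% binomial interval 21.1 to 33.0) and of 165 in the mutant rescue list (72.4%, 66.1 to 78.1). These intervals, and those below, cover counting error only. All 61 genes of the WT rescue list were also in the mutant rescue list, 104 genes were in the mutant rescue list only, 0 were in the WT rescue list only, and 63 were in neither. The same count was made, as background, on the same chromosomes at the start sites of 18710 protein-coding genes (at either gene boundary where the table gives no start) and at 3161 other RNA genes of at most 300 bp. At protein-coding start sites the WT rescue list reached 11.4% and the mutant rescue list 6.04%; 2.62% were in both lists, 3.42% in the mutant rescue list only and 8.74% in the WT rescue list only. At the other short RNA genes these shares were 2.53% and 2.09%, with 0.886% in both, 1.2% in the mutant rescue only and 1.65% in the WT rescue only. The class was chosen for these counts, so nothing is read from the distance to the background.

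H3K4me3 lay within 200 bp of 170 genes (WT rescue) and 169 genes (mutant rescue), and 164 genes had it in both. Of these 164 genes, 150 also had a mutant rescue WDR5 region. The H3K4me3 counts are therefore not independent of the choice of the class. The backgrounds were 67.5% and 66.7% at protein-coding start sites, and 12.7% and 11.9% at the other short RNA genes, against 74.6% and 74.1% here. So the H3K4me3 lists named nearly the same tRNA genes in both lines: 6 genes were in the WT rescue list only (among them n-TGgcc12, H3K4me3 fold 11.8, and n-TMcat3, 5.19). The mutant rescue list alone named n-TSgct1 (5.53), n-TGgcc11 and n-TGgcc10 in 1 region (4.49), n-TGgcc4 (3.36) and n-TCgca47 (2.78). Many of these differences hang on the 200 bp window. Within 1 kb, 3 of the 6 genes had a mutant rescue H3K4me3 region, and 3 of the other 5 had a WT rescue one. For n-TGgcc12 the nearest mutant rescue H3K4me3 region lay 258 bp away, with a fold of 12.2. How far the H3K4me3 lists named the same genes was not counted at protein-coding start sites or at the other short RNA genes. Nothing is therefore read from this overlap about tRNA genes in particular.

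**Figure D1:**
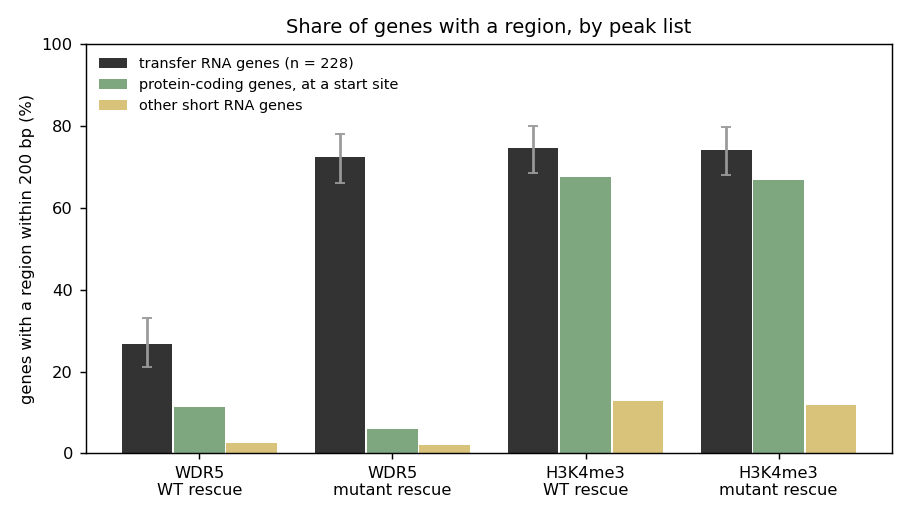
Share of genes (%) with a region within 200 bp in each of the 4 peak lists, for the 228 tRNA genes (dark bars, with exact 95% binomial intervals), for protein-coding start sites (green) and for other short RNA genes (yellow). The tRNA genes stand at 26.8% and 72.4% in the WDR5 lists and at 74.6% and 74.1% in the H3K4me3 lists.

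The wider window and a stricter cut moved the WT rescue count far more than the mutant rescue count. Within 1 kb, 90 genes had a WT rescue WDR5 region and 169 a mutant rescue one, 89 of them both and n-TEctc8 alone in the WT rescue only. The background within 1 kb was 17.6% and 10% at protein-coding start sites and 4.87% and 4.71% at the other short RNA genes. With only regions of a −log10 q of at least 2, 23 WT rescue genes and 162 mutant rescue genes were left; all 23 were among the 162. The background at that cut was 1.96% and 1.45% at protein-coding start sites and 0.664% and 0.886% at the other short RNA genes. Taken over genes, the median −log10 q of the nearby region was 25.1 (mutant rescue) and 1.08 (WT rescue). A region shared by several genes counts once for each of them. Taken over regions, the medians of the whole lists were 0.0171 (mutant rescue) and 0.0233 (WT rescue).

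The mutant rescue regions sat on the tRNA genes, and the H3K4me3 regions peaked beside them. Of the 165 genes with a mutant rescue WDR5 region, 163 were overlapped by it by at least 1 bp. In the WT rescue this held for 28 of 61, and the region of each of these 61 genes was overlapped by the mutant rescue region. At isolated genes, which have no other nuclear tRNA gene within 5 kb, the mutant rescue summit lay a median of 72 bp from the middle of the gene (56 genes, 19.5 to 203 bp), within 100 bp at 42 of them (75%, interval 61.6 to 85.6). The WT rescue summits lay a median of 119 bp away (16 genes). The H3K4me3 summits lay 395 bp (62 genes, none nearer than 166.5 bp) and 457.5 bp away (63 genes, none nearer than 128.5 bp) in the WT and mutant rescue. Median widths at these genes were 495 bp (mutant rescue WDR5) and 1726 and 1627 bp (H3K4me3, WT and mutant rescue). All regions were first chosen within 200 bp of a gene, so a wide region can have a farther summit. What width contributes was not tested. Over all 228 genes the summit fell inside the gene itself at 5 genes in the mutant rescue WDR5 list (n-TLaag4, n-TKctt18, n-TEttc8, n-TGgcc5 and n-TFgaa2) and at 0 in the other 3 lists. H3K4me3 regions overlapped 109 of the 170 genes they served in the WT rescue and 117 of the 169 in the mutant rescue; at the rest they only flanked the gene.

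**Figure D2:**
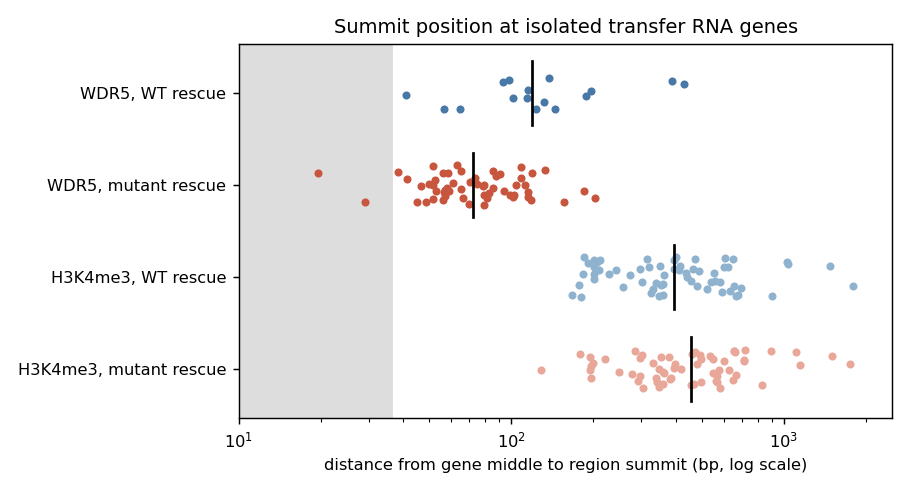
Distance in bp (log scale) from the middle of each isolated tRNA gene to the summit of its nearby region, 1 point per gene, with 1 row per peak list and a black bar at the median. Grey marks the part of the axis that lies inside a gene of median length; WDR5 summits crowd near 100 bp (medians 119 and 72 bp) and H3K4me3 summits lie farther out (medians 395 and 457.5 bp).

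Neighbouring tRNA genes often shared 1 region. The 165 genes fell into 121 mutant rescue regions: 92 covered 1 gene, 20 covered 2, 3 covered 3 and 6 covered 4. Their median widths grew with the number of genes, from 490.5 bp over 1 gene to 1026, 1190 and 1722 bp over 2, 3 and 4. The WT rescue had 52 regions for its 61 genes. Genes of 1 region are therefore not separate observations, and their fold is the same value. In the mutant rescue list, folds at tRNA genes ran from 2.24 to 11.42. Their median was 7.16 over genes, so shared regions repeat, where the list's 26888 regions had a median of 2.50. The 92 regions over 1 gene had a median fold of 6.39. In the WT rescue list, folds ran from 2.06 to 6.01 with a median of 3.05 over genes, where its 11095 regions had a median of 2.66.

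Among the genes with a WDR5 region in both lines, the genes of highest mutant rescue fold code for several amino acids. n-TRtct1, an arginine gene at 12011588 to 12011673 of chromosome 19, and n-TVtac1, a valine gene in the same region, stood at 3.72 (WT rescue) and 11.4 (mutant rescue). The histidine genes n-THgtg3 and n-THgtg5 on chromosome 2, 8216 and 8821 bp from the start of Shf, shared a region in each list, with folds of 3.60 and 11.3. n-TAtgc9, an alanine gene on chromosome 11, stood at 3.27 and 11.1, and the proline gene n-TPcgg2 on chromosome 1 at 2.47 and 9.80. All of these lay 2971 bp or more from the nearest protein-coding start site, or gene boundary where no start is given. For n-TPcgg2 the nearest site was such a boundary, of Rcsd1.

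Next in this order were n-TGgcc12 (WT rescue fold 3.84, mutant rescue fold 9.54) and the cysteine genes n-TCgca55 (2.82 and 9.54) and n-TCgca54 (3.63 and 9.54), 1258 and 581 bp from Arl5c. The asparagine gene n-TNgtt14 (2.06 and 9.53) had a mutant rescue −log10 q of 70.1, above that of every other tRNA gene here, while its WT rescue fold was the lowest of the 61. n-TRcct2 (2.88 and 9.49), the pair n-TIaat4 and n-TTagt7 in 1 region (2.92 and 9.47) and n-TEttc4 (2.097 and 9.47) closed the list. The gene with the highest WT rescue fold, named after its value was seen, was the serine gene n-TSaga9 on chromosome 4, at 6.01 (−log10 q 8.63), beside 8.81 in the mutant rescue list.

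Among the 104 genes with a WDR5 region in the mutant rescue list only, folds ran up to the same height. The threonine gene n-TTcgt5 on chromosome 16 had a fold of 11.4 and is isolated, 78902 bp from the nearest start site, that of Mrtfb. n-TLtaa4 and n-TVtac2 had 11.4 in the region on chromosome 19 that also covers n-TRtct1. n-TKctt10 had 11.1 in the region shared with n-TAtgc9, and n-TGtcc7 and n-TEctc13 on chromosome 3 had 10.9. n-TRacg6, 226 bp from the start of Prmt5, had 10.8, and n-TPtgg5, 359 bp from that of Rnase4, a ribonuclease gene, had 10.6.

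A single region over n-TPcgg3, n-TDgtc9, n-TGtcc6 and n-TWcca7 on chromosome 11, for proline, aspartate, glycine and tryptophan, had a fold of 10.4. n-TAtgc10 and n-TPcgg1 had 10.2, and n-TCgca56 had 9.83. Of the 104 genes, 101 had a mutant rescue −log10 q of at least 2, and 26 had a WT rescue WDR5 region within 1 kb. Their median mutant rescue fold was 6.55, and that of the 61 genes in both lists was 7.92.

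In the mutant rescue list few tRNA genes lay near the limits of −log10 q and of distance. Just above a mutant rescue −log10 q of 2 were n-TGgcc11 (2.13) and n-TLcag8 and n-TGgcc14 (both 2.66), and just below it were n-TKctt24 (1.64), n-TGgcc9 (0.681) and n-TKctt4 (0). Of the 165 genes, n-TLcag8 (143 bp) and n-TKctt4 (115 bp) were the 2 that the region did not overlap; just outside the window were n-TGgcc10 (269 bp), n-TDgtc3 (368 bp) and n-TLcag7 (663 bp). In the WT rescue list many genes did: 23 of 61 reached a −log10 q of 2, with n-TKctt29 (2.01) just above it and n-TNgtt6 (1.82) and n-TYgta10 (1.74) just below. By distance, n-TGgcc14 (181 bp) and n-TYgta1 (147 bp) were just inside 200 bp, and n-TLtag3 (205 bp), n-TGccc6 (209 bp), n-TEttc6 (214 bp) and n-TPagg5 (217 bp) just outside; within 1 kb the count was 90 in place of 61. These WT rescue genes were named after their values were seen.

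WDR5 regions in the mutant rescue list were found at genes for all 20 amino acids. 46 anticodons are present: for 20 of them every copy had a mutant rescue region, and for 2 of them, each with 1 gene (n-THatg1 for histidine and n-TSgga1 for serine), none had. All 5 phenylalanine genes and all 4 tyrosine genes had one, as did 13 of 14 arginine genes, 12 of 13 proline genes, 9 of 10 threonine genes and 15 of 18 leucine genes. The lowest shares were at cysteine (3 of 8 genes), aspartate (7 of 13), methionine (3 of 5) and glutamate (11 of 18). Glycine, with 25 genes, had a region at 17, and lysine, with 20 genes of the single anticodon CTT, at 13. Asparagine had 9 of 13, histidine 7 of 11, isoleucine 5 of 8, valine 7 of 10, alanine 7 of 9, serine 8 of 10, glutamine 6 of 8 and tryptophan 4 of 6.

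In the WT rescue list a WDR5 region lay at all 4 tyrosine genes (anticodon GTA, folds 3.08 to 3.98), beside 7 of 14 arginine genes and 1 of 13 aspartate genes. With only regions of a −log10 q of at least 2, these WT rescue counts were 2 of 4 for tyrosine, 1 of 14 for arginine and 1 of 13 for aspartate. With 4 genes the exact interval for tyrosine, at the authors' threshold, reaches down to 39.8%. Of these genes, n-TYgta1 and n-TYgta2 share 1 WT rescue region (fold 3.98), which lies 147 bp from n-TYgta1. They are the 2 that passed the stricter cut. They are not separate observations, so this interval is too narrow. Copies of 1 anticodon differed widely among themselves. The mutant rescue folds of glycine genes with anticodon GCC ran from 2.24 to 9.54 with a median of 2.99 (9 of 12 genes), and those of lysine genes from 2.27 to 11.1 (13 of 20). The 3 cysteine genes with a region lay between 9.54 and 9.83, and the other 5 had none. All 4 proline genes with anticodon AGG, all 3 leucine genes with AAG and all 3 with TAG had a mutant rescue region and no WT rescue region within 200 bp. Within 1 kb, 3 of these proline genes, 0 of the AAG and 1 of the TAG leucine genes had a WT rescue region.

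**Figure D3:**
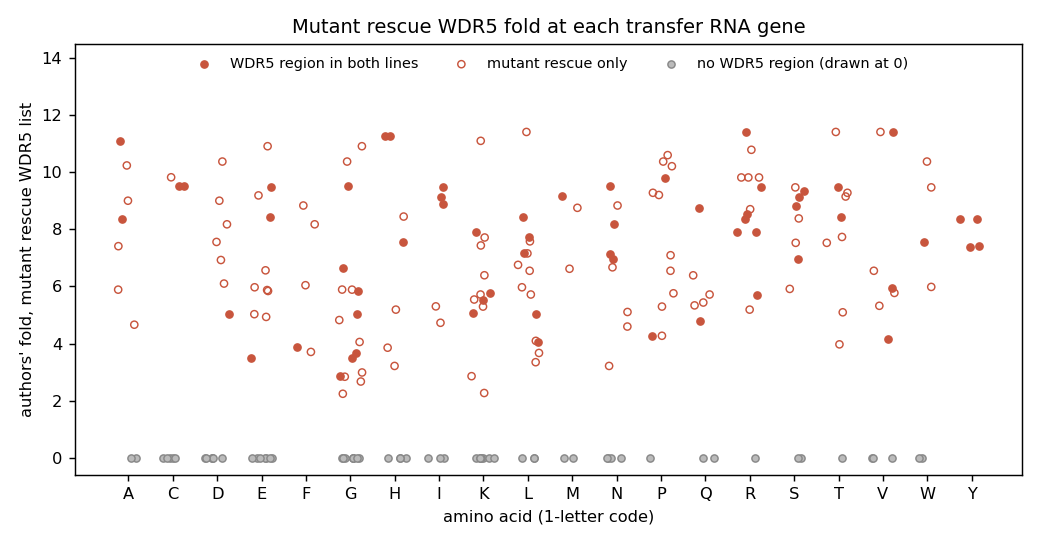
The authors' fold in the mutant rescue WDR5 list (vertical axis, no unit) for each of the 228 tRNA genes, by amino acid in 1-letter code; filled red points have a WDR5 region in both lines, open points in the mutant rescue only, and grey points at 0 have none. Every amino acid has red points between 2.24 and 11.42, and phenylalanine (F) and tyrosine (Y) have no grey point; genes of 1 shared region repeat its value.

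By chromosome, mutant rescue regions were found at 10 of 10 genes on chromosome 19, 11 of 12 on chromosome 14 and 9 of 10 on chromosome 7, but at 1 of 8 on chromosome 4 and 1 of 4 on chromosome 15. The 3 largest sets had 39 of 47 (chromosome 11), 28 of 40 (chromosome 3) and 22 of 37 (chromosome 1). The WT rescue counts on these 3 were 13, 11 and 12. Outside the set described here, mutant rescue regions were at 102 of 105 genes on chromosome 13 and at 4 of 53 on chromosome 6, with 16 and 0 in the WT rescue. Their H3K4me3 counts in the WT rescue were 94 and 4.

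Clustered and isolated tRNA genes are set side by side here, with no test of the difference. Of 131 genes with another tRNA gene within 5 kb, 109 had a WDR5 region in the mutant rescue (83.2%, 75.7 to 89.2) and 45 in the WT rescue (34.4%). Of 97 isolated genes, 56 had one in the mutant rescue (57.7%, 47.3 to 67.7) and 16 in the WT rescue (16.5%). WT rescue H3K4me3 was at 108 clustered and 62 isolated genes, which is 82.4% and 63.9%. Clustered genes can share a region, so their intervals are too narrow.

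The genes were also divided by distance to the nearest protein-coding promoter, again with no test. A mutant rescue region was found at 29 of 32 genes within 1 kb of a start site (90.6%), 58 of 67 between 1 and 10 kb (86.6%) and 78 of 129 farther away (60.5%). The WT rescue had 11, 23 and 27. For isolated genes the counts were 21 of 21 within 1 kb, 14 of 20 between 1 and 10 kb, and 21 of 56 beyond 10 kb (37.5%, 24.9 to 51.5), with 9, 2 and 5 in the WT rescue. WT rescue H3K4me3 was at 21, 15 and 26 of these genes. For clustered genes the mutant rescue counts were 8 of 11, 44 of 47 and 57 of 73, so at over 10 kb most clustered genes had a region and most isolated genes had none. Of 32 tRNA genes inside a protein-coding gene, 15 had a mutant rescue region and 10 a WT rescue region, against 150 and 51 of the 196 outside. For 50 genes the nearest site was a gene boundary without a known start, which can be a gene's end.

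**Figure D4:**
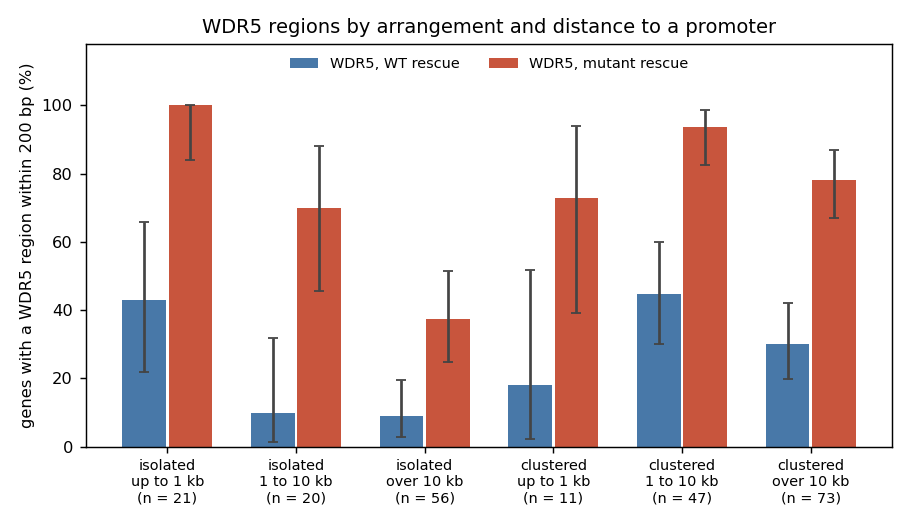
Share of tRNA genes (%) with a WDR5 region within 200 bp, for isolated and clustered genes by distance to the nearest protein-coding promoter; blue bars are the WT rescue, red bars the mutant rescue, and error bars are exact 95% binomial intervals. Red bars drop from 21 of 21 to 21 of 56 genes for isolated genes, while for clustered genes they stand at 8 of 11, 44 of 47 and 57 of 73.

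The 21 isolated genes within 1 kb of a promoter sit beside genes of many kinds, and their mutant rescue folds ran from 4.09 to 10.8. Beside n-TRacg6 and n-TRtcg5, described above, n-TScga2, a serine gene 691 bp from Smarcc2 (a subunit of the BAF chromatin remodeller), had folds of 4.31 (WT rescue) and 9.35 (mutant rescue). n-TQctg9, 290 bp from Rab11a (a small GTPase of recycling endosomes), had 2.86 and 8.75. n-TEttc4 lies 400 bp from Wbp4, which encodes a splicing factor. n-TMcat17 (8.76) near Fbxo31 and n-TSgct7 (8.39) near Knl1, a kinetochore gene, had a region within 200 bp in the mutant rescue list only. For n-TSgct7 the nearest WT rescue WDR5 region lay 492 bp away. Except for n-TRacg6 and n-TEttc4, these genes were picked after their values were seen.

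H3K4me3 and mutant rescue WDR5 regions were mostly found at the same tRNA genes, in a class where 165 of 228 had such a WDR5 region. Of 164 genes with H3K4me3 in both lines, 150 had a mutant rescue WDR5 region (91.5%, 86.1 to 95.3) and 57 a WT rescue one. Of 53 genes without H3K4me3 in either line, 8 had a mutant rescue region (15.1%, 6.75 to 27.6) and 0 a WT rescue region. Away from promoters the overlap was similar in size: of 79 genes with H3K4me3 in both lines that lie over 10 kb from a protein-coding promoter, 69 (87.3%) had a mutant rescue WDR5 region. Both marks were called from the same 2 cell lines, and clustered genes share regions of both. The class was singled out for its WDR5 counts, and these shares were not counted at other genes. Nothing is therefore read from them about tRNA genes in particular.

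The highest H3K4me3 folds of the WT rescue list at tRNA genes were at n-TAcgc8 and n-TGgcc8 on chromosome 2 (WT rescue fold 18.4, mutant rescue fold 15.8, 1 region), n-TGgcc3 on chromosome 1 (18.1 and 16.03), n-THgtg1 (17.6 and 10.9) and n-THgtg2 (17.5 and 14.0) on chromosome 3. In the mutant rescue list the order differed: the highest fold, 16.1, stood at n-TLcag9, n-TDgtc5, n-TGtcc3 and n-TEctc6, which share 1 region on chromosome 1 and were named after their values were seen. n-TGgcc3 had no WDR5 region in either line. It is 1 of 14 genes with H3K4me3 in both lines and no WDR5 region, of which 9 are isolated and 5 clustered. The next by WT rescue H3K4me3 fold, named after their values were seen, were n-THgtg10 (12.1 and 8.76), the clustered n-TDgtc3 (11.8 and 12.2), n-TDgtc10 (11.7 and 6.19) and n-TWcca8 (10.7 and 8.23). The opposite case held 8 genes: n-TCgca56, n-TGccc6, n-TQctg6, n-TQctg3, n-TFgaa2, n-TKctt24, n-TKctt4 and n-TGgcc13 had mutant rescue WDR5 folds of 9.83, 5.89, 5.72, 5.44, 3.71, 2.86, 2.27 and 2.24 and no H3K4me3 within 200 bp. For n-TQctg6 and n-TQctg3 the nearest H3K4me3 region of the WT rescue lay 385 and 719 bp away, and for n-TCgca56 it lay 1891 bp away.

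For 63 genes neither WDR5 list held a region within 200 bp. Of these, 41 are isolated, and 15 and 17 had H3K4me3 in the WT and mutant rescue. No region of any of the 4 lists lay within 1 kb of 36 genes, of which 29 are isolated and 29 lie over 10 kb from a promoter. The first 5 by position are n-TDgtc7, n-THatg1 and n-TNgtt3 on chromosome 1, n-TDgtc2 on chromosome 2 and n-TKctt9 on chromosome 3. The absence of a region says that none passed the authors' threshold at an unknown depth, not that the protein was absent.

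The 228 genes form 42 clusters and 97 single genes at a spacing of 5 kb. The largest cluster has 8 genes for phenylalanine, lysine, leucine, arginine and valine on chromosome 19, from 12002236 to 12012338. All 8 had a WDR5 region in the mutant rescue, in 5 regions with folds of 3.71 to 11.4, and 4 had one in the WT rescue. H3K4me3 was near 7 of them (WT rescue) and 6 (mutant rescue). The next has 7 genes on chromosome 11, from 69037003 to 69041897: all 7 had a mutant rescue region, in 2 regions, and 2 had a WT rescue region. In the cluster on chromosome 5 that starts at 125404250, all 5 genes had a mutant rescue region and 0 a WT rescue region, with WT rescue H3K4me3 at all 5. In the cluster of 5 genes on chromosome 3 that starts at 96497781, which includes n-TGtcc7 and n-TEctc13, all 5 had a mutant rescue region and 2 a WT rescue region.

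A set on chromosome 1 near Fcgr3, an Fc receptor gene, repeats the order glutamate, glycine, aspartate, leucine, glycine 3 times, with copies 7628 and 7614 bp apart. Their counts differed. In the first copy, from 171064164, 4 of 5 genes had a WDR5 region in each line, with H3K4me3 at 5 and 4. Within 200 bp, the second copy, from 171071792, had 0 in the WT rescue, 1 in the mutant rescue and no H3K4me3. H3K4me3 regions lay 336 bp (WT rescue) and 332 bp (mutant rescue) from its first gene, n-TEctc8. A WT rescue WDR5 region lay 614 bp from that gene. The third copy, from 171079406, had 1, 2 and 3 (H3K4me3, in each line). Copies of a tRNA gene are often near-identical, and how reads that match several copies were placed is not given in the sources used here, so which copy holds a region is uncertain. The same holds for other identical tRNA genes. Without this repeat 158 of 213 genes had a mutant rescue WDR5 region.

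**Figure D5:**
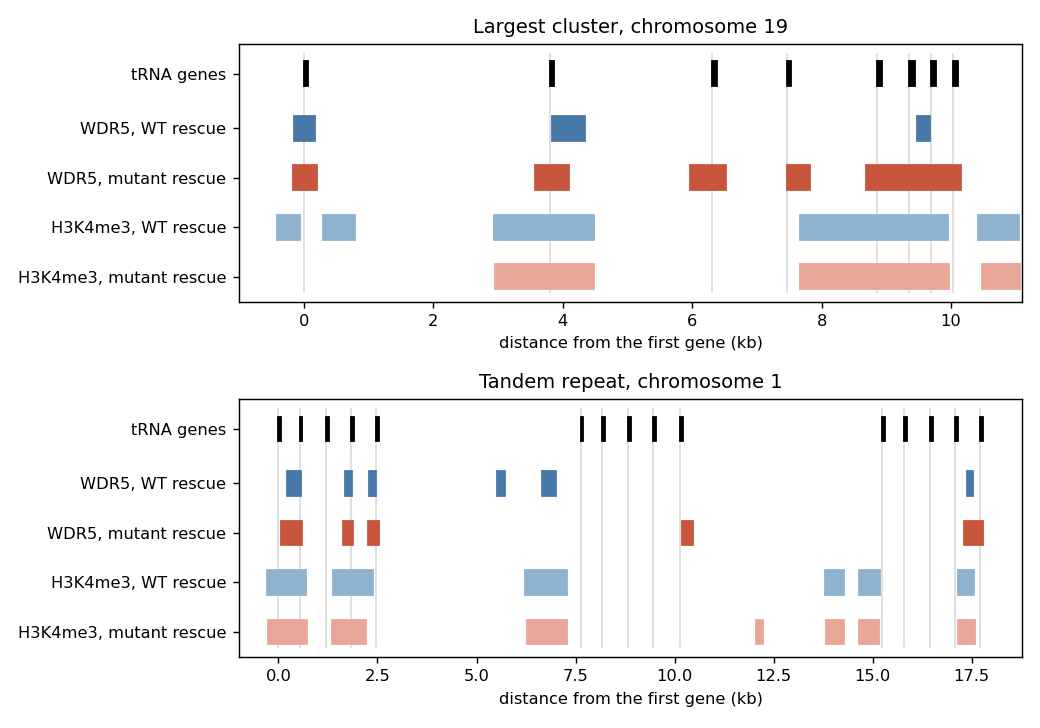
Maps of the largest cluster (chromosome 19, top) and of the repeated set on chromosome 1 (bottom), with distance from the first tRNA gene in kb along the horizontal axis; black boxes are tRNA genes and coloured boxes are regions of the 4 peak lists. In the top map each of the 8 genes meets 1 of 5 red mutant rescue WDR5 regions. In the bottom map the middle copy has 1 such region and no H3K4me3 within 200 bp of its genes.

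Genes that make or use tRNA were also read at their start sites, within 1 kb, where the background for H3K4me3 is 70.5% (WT rescue) and 69.7% (mutant rescue). All of them had H3K4me3 in both lines. Of 18 RNA polymerase III subunit genes, 3 (WT rescue) and 5 (mutant rescue) had a WDR5 region. The highest mutant rescue fold was at Polr3e (4.09), in the region that also covers n-TLaag4; Polr1d (2.48), Polr3b (2.42) and Crcp (2.21) had a −log10 q below 2. Of 17 genes for TFIIIB, TFIIIC, TFIIIA, SNAPc and the repressor Maf1, 7 and 2 had one, with Gtf3c1 (3.31) and Gtf3c6 (3.26) in the mutant rescue, both with a −log10 q below 2. Of 23 genes for cytosolic aminoacyl-tRNA synthetases, which load the amino acid, 9 and 3 had one, with mutant rescue folds of 3.01 at Kars (−log10 q 2.01), 2.93 at Vars and 2.39 at Aimp2 (both below 2). Of 29 tRNA processing and export genes, 9 and 6 had one. Trnt1, which adds the CCA end, stood at 3.63 (−log10 q 3.26); with a −log10 q below 2, Pus7 (a pseudouridine synthase) stood at 3.20, Xpot (the tRNA exporter) at 2.94 and Mettl1 (a tRNA methyltransferase) at 2.86. These mutant rescue shares run from 11.8% to 27.8% of a list, where all protein-coding genes stand at 10%. The WT rescue shares run from 16.7% to 41.2%, where all protein-coding genes stand at 17.6%. Of the WT rescue WDR5 regions at these genes, only those at Gtf3c6 and Wars had a −log10 q of at least 2. The background within 1 kb was not counted at that cut. No test was made, and nothing is read from the distance of these shares to the background.

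The label of the cells was read against H3K4me3 at marker genes. All 10 embryonic stem cell markers, among them Pou5f1, Sox2 and Nanog, had H3K4me3 within 1 kb of a start site in both lines, and 5 and 3 of 9 fibroblast markers did in the WT and mutant rescue. The number of regions differed between the WDR5 lists (11095 and 26888) more than between the H3K4me3 lists (71695 and 74305). What that difference contributes to the WDR5 counts was not tested; with the longer list reduced to the length of the shorter, 164 of the 228 genes had a mutant rescue region.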

How the data were processed

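The labels describe 6 ChIP-seq samples, 1 each of WDR5, H3K4me3 and input per line; only the 4 antibody peak lists were used. The submitters' processing notes name MACS2 2.1.2, BWA 0.7.17-r1188, Picard and SAMtools, with mm10; settings, the control and the handling of reads that match several places are not given in the sources used here. Each list belongs to 1 library. The deposited lists give per region a fold enrichment (a ratio), −log10 p and −log10 q values, a summit offset (another unit, in bp, by the authors) and a deposited score that was not used. Read depth is unknown. Regions were matched to tRNA genes by the gap between edges: 200 bp, and 1 kb as the second window. If several qualified, the one of highest fold was used. Shares have exact Clopper-Pearson 95% intervals. Start sites came from RefSeq promoter windows for 17492 protein-coding genes and gene boundaries for 4395, over all autosomes, X and Y; the background counts use only the chromosomes described. With 1 library per group no test was run. Genes were named by rule: the 10 regions of highest mutant rescue fold among genes in both lists and among genes in the mutant rescue only, the 5 highest isolated genes, the largest clusters, the first 5 without any region, 3 on each side of each limit, the 5 highest H3K4me3 folds and up to 4 genes per gene list. Members and lists were chosen with earlier results of these data known. The script was tested on simulated regions among 228 genes, where 59 of 59 planted within 200 bp were found. Alternatives were cuts at 2 (−log10 q) and at 5 (−log10 p), equal list lengths, windows of 0 bp and 1 kb, joined loci, genes near boundaries left out and other spacings for isolated genes; leaving out the chromosome 1 repeat was added after seeing the data.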

Additional observations from a re-analysis of the deposited data

How the results depend on the processing

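Of 70 alternative values, 61 stayed within their limit and 9 moved beyond it. The limit was a set ratio to the main count, or the exact interval of the main share. The WT rescue WDR5 count of 61 moved to 23 with a −log10 q of at least 2, to 32 with a −log10 p of at least 5 and to 28 with a window of 0 bp, and the count in both lines moved with it (23, 32 and 28). The mutant rescue count of 165 stayed between 158 and 169 where single genes were counted, except that 123 of 184 remained without genes near a protein-coding boundary; joined loci gave 112 of 164. The count in the mutant rescue only moved from 104 of 228 (45.6%) to 65 of 164 (39.6%) when loci were joined. With a −log10 q of at least 2 it was 139 of 228 (61.0%), which the ratio of counts left within the limit. The count in the WT rescue only moved from 0 to 1 within 1 kb. The H3K4me3 count of the WT rescue moved from 170 to 109 with a window of 0 bp. The mutant rescue share ranged from 52.3% to 60.9% for isolated and from 82.4% to 87% for clustered genes. No paired analysis was possible because each antibody and line has 1 library and no result comes from a test. Depth is unknown, so a missing region is no measure of absence.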
